A study of Mus musculus with 2 samples.

Results

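Proliferins are secreted glycoprotein hormones of the prolactin family. They were examined here through the 2 genes Prl2c2 and Prl2c3 in bulk RNA of 4T1 tumours. The members were the whole-number rows of the deposited table with these symbols, 2 of 34259 rows, and they were compared with the 23 other rows whose symbol is Prl followed by a digit. The members were chosen by their treated and control counts in these libraries, so their ratio is a description and carries no test. 4T1 cells derive from a mammary carcinoma of a BALB/c mouse. The treated tumour had received 3 injections of a degrader, a compound that causes a protein, here an autophagy-related one, to be broken down, and the other tumour is labelled only as a control. The labels give no target of the degrader, no content of a control injection, and no strain, sex or age of the mice.

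There was 1 library per arm, made from 1.5 µg of total RNA, with totals of 3824323 counts (treated) and 2252214 counts (control). Batch 1 held the treated tumour alone and batch 2 the control alone, so effects of batch, of the individual tumour and of treatment cannot be told apart. All values compare 2 libraries, with no replicate check. Intervals are exact 95% intervals that cover counting error only. In bulk tissue, fewer cells of a type and less RNA per cell cannot be told apart. Levels are in CPM, counts in each 1000000 after scaling, and ratios are treated over control CPM.

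Proliferin was first found as a transcript induced by serum and growth factors in mouse fibroblasts, and in the placenta it is made by trophoblast giant cells. The secreted protein stimulates the migration of endothelial cells and vessel growth and binds the receptor for insulin-like growth factor II and mannose 6-phosphate, Igf2r. Proliferin transcripts are also known from wounded skin and hair follicles of the mouse. The proliferin promoter is a well-studied case of a composite element at which AP-1 and the glucocorticoid receptor act together. The family has grown in rodents by gene duplication, which leaves copies that short reads may not separate.

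Prl2c3 (ENSMUSG00000056457) lies on the minus strand of mm10 chromosome 13 at 12790816 to 12800079, and Prl2c2 (ENSMUSG00000079092) on the same strand at 12996125 to 13005383, with starts 205.3 kb apart. Prl2c5 (13182715 to 13191923, plus strand) is a further proliferin copy nearby. The other 22 family rows lie in a separate cluster between 27094190 and 28151611 on the same chromosome, 14.3 Mb away. In the GENCODE M21 annotation of this build, the main transcripts of Prl2c3 and Prl2c2 have 5 exons each, 857 and 842 bases in length, and each encodes 224 amino acids.

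The coding sequences of Prl2c3 and Prl2c2 differ at 3 of 675 bases, which makes them 99.6% identical. The substitutions are C14T, A200C and G319T, counted from the A of the start codon, with the base of Prl2c3 first. A stretch of 150 coding bases, from base 192 to base 341, is shown because it holds the most positions at which the 3 nearby copies differ. Within it Prl2c3 differs from Prl2c2 at 2 positions and from Prl2c5 at 9. Capitals mark the 10 positions at which the copies are not all alike. The bases are from GENCODE M21 transcripts and run 5′ to 3′ on the coding strand.
Prl2c3: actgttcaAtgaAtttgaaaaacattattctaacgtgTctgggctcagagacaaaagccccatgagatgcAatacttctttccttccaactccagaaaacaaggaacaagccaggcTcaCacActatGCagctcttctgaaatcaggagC
Prl2c2: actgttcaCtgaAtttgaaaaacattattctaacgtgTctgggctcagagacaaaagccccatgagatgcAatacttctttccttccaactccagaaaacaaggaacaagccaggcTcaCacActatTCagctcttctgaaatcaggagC
Prl2c5: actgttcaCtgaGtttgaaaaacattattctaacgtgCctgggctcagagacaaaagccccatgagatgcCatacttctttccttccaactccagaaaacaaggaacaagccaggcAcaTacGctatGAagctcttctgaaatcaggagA

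Over whole transcripts Prl2c3 and Prl2c2 were 97.8% identical in an alignment that counts gaps, with an identical run of 465 bases. Of all windows of 50 bases in the Prl2c3 transcript, 78.6% also occurred in Prl2c2, and of windows of 100 bases 62.3%. A read of 50 bases from most of the transcript therefore matches both genes equally well. Prl2c5 shared 11.5% of the 50-base windows of Prl2c3 and none of the 100-base windows. Besides Prl2c5, the annotated genes sharing any 50-base word with a member were Gm7040, Prl2c1 and Prl7d1. Prl2c1 and Prl7d1 had 0 counts in both libraries. Gm7040, which shared 11.2% of the members' 50-base words, had no row among those used, so its counts are not known. The reference is the C57BL/6J genome, and the sources used here do not give how reads matching several genes were counted. The division of counts between Prl2c2 and Prl2c3 is therefore uncertain, and the sum of both is the more secure value.

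**Figure D1:**
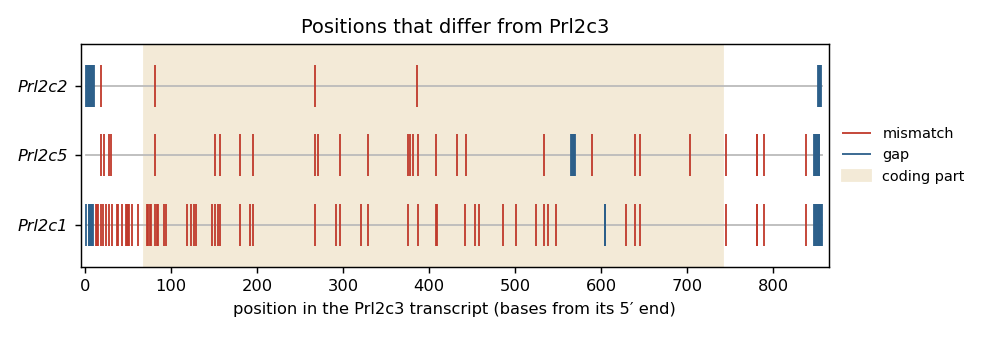
Positions at which Prl2c2, Prl2c5 and Prl2c1 differ from the Prl2c3 transcript, in bases from its 5′ end; red lines are mismatches, blue lines gaps and the shaded area is the coding part. Prl2c2 differs at 3 coding positions, whereas differences from Prl2c5 and Prl2c1 are spread over the transcript.

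The bases before the start of Prl2c3 and Prl2c5 are shown because both genes are proliferin copies of like sequence with different counts. Prl2c2, the other member, had no window among those used here, so its motifs were not examined. The RefSeq table used here (GRCm38.p6, the mm10 build) gives 250 bases for Prl2c3 at chr13:12800080-12800329 on the minus strand and for Prl2c5 at chr13:13182466-13182715 on the plus strand. Capitals mark matches on either strand to 3 motifs. The letters searched for AP-1 were TGANTCA. Those for the GATA factors were AGATAA. The TATA box was searched as TATATAA. None of the matches overlap.
Prl2c3: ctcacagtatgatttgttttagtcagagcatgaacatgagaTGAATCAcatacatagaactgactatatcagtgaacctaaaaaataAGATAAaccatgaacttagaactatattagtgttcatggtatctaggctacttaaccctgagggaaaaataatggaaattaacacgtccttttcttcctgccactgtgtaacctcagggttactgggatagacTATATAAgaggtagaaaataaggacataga
Prl2c5: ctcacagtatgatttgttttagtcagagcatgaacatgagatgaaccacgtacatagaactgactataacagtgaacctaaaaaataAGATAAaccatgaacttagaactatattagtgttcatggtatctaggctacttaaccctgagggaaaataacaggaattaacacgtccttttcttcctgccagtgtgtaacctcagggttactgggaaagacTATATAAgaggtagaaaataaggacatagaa

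The windows were 96.0% identical, with 8 mismatches and 2 gap columns. The AP-1 letters began 209 bases before the start of Prl2c3 and did not occur in the Prl2c5 window, where T46C, counted from the 5′ end of the window with the base of Prl2c3 first, falls inside the match. GATA and TATA matches stood in both windows. Of 32817 promoter windows of the same length, 6.75% held the AP-1 letters, 9.99% the GATA factor letters and 3.04% those of the TATA box. A match describes letters only and does not show that a factor binds there.

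Proliferin transcripts were abundant in the treated tumour and had few counts in the control tumour. Prl2c3 had 1066 treated and 10 control counts, levels of 275.8 CPM (259.5 to 292.9) and 4.49 CPM (2.15 to 8.25). Prl2c2 had 217 and 2 counts, levels of 56.1 CPM (48.9 to 64.1) and 0.897 CPM (0.109 to 3.24). Each row was thus higher in the treated than in the control library. The members were chosen on these counts, so this describes them and is no test. Reads matching both copies may have been divided between the rows, so a difference of each gene by itself is uncertain. The ratio was 61.5 for Prl2c3 (33.3 to 129) and 62.6 for Prl2c2 (17.1 to 519.9).

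Both copies together had 1283 treated and 12 control counts. That is a level of 332 CPM (314 to 351) against 5.38 CPM (2.78 to 9.41), a ratio of 61.6 (35.2 to 119.6). The copies' share of all counts was 0.0335% in the treated library (0.0317% to 0.0354%). It was 0.000533% in the control library (0.000275% to 0.000931%). The upper bound of the ratio is wide because the control side rests on 12 counts. Adding the 2 treated counts of Prl2c5 gave a ratio of 61.7 (35.2 to 119.8).

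The split between the copies was alike in both libraries. Prl2c3 took 83.1% of the summed counts in the treated library (80.9% to 85.1%) and 83.3% in the control library (51.6% to 97.9%), where it rests on 10 of 12 counts. The table thus lists 4.91 counts of Prl2c3 for each of Prl2c2 in the treated library, a division that is uncertain. Their main transcripts are of nearly the same length, but all annotated exons, used below for levels per kb, span 1360 and 1090 bases.

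Both members were past the 2-fold rule, that is a log2 ratio of 1 or more with a pseudocount of 1 CPM, applied to genes whose mean reached 10 CPM. Among the 8865 genes so measured, 4.23% passed it as higher in the treated tumour and 2.50% as lower. Since the members were chosen on this contrast, nothing is read from that share. Both members reached the mean only through the treated library. On this log2 scale the ratio was 5.66 for Prl2c3, 4.91 for Prl2c2 and 5.70 for their sum, with a median of 0.03 over all 8865 genes. A total of 17 measured genes had a higher log2 ratio than Prl2c3 and 43 a higher one than Prl2c2.

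Per kb of annotated exon, Prl2c3 stood at 202.8 CPM in the treated library, where 308 of 17375 detected genes (1.77%) were higher, and at 3.30 CPM in the control library, where 7211 of 16101 (44.8%) were higher. Prl2c2 stood at 51.5 CPM per kb, below 1014 genes (5.84%), and at 0.823 CPM per kb, below 11579 genes (71.9%). Prl2c3 was thus among the most abundant transcripts of the treated tumour by this measure and close to the middle of the detected genes of the control tumour. If reads were counted from one end of the transcript, which is not stated, the length would not bear on the counts.

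**Figure D2:**
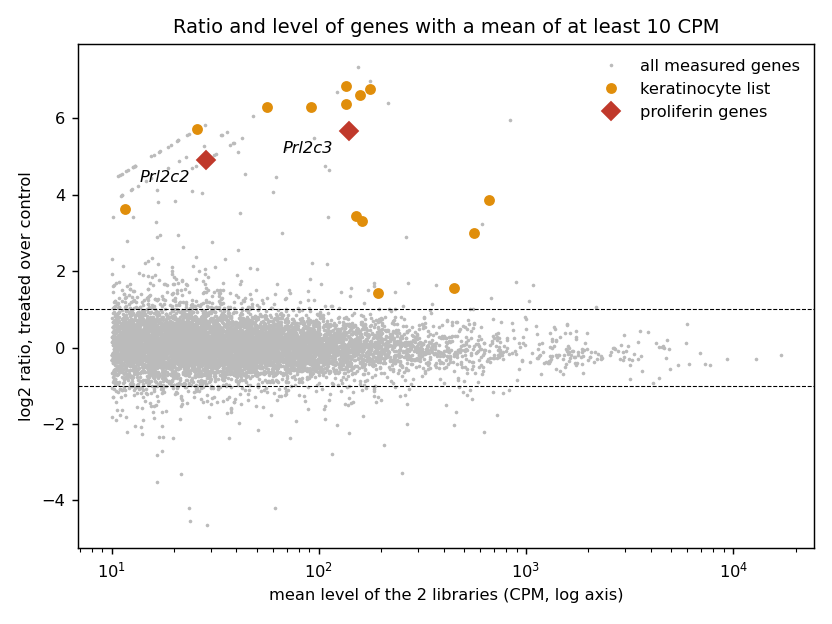
Log2 ratio of treated over control against the mean level in CPM (log axis) of 8865 genes; grey points are all genes, orange points the keratinocyte list and red diamonds Prl2c2 and Prl2c3, and dashed lines mark 2-fold. Prl2c3 (5.66) and Prl2c2 (4.91) lie below 7 genes of the keratinocyte list and above its other measured genes. Among the 7 is Dsc3, which has 0 control counts.

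The remaining prolactin family was sparse. Of the 23 other rows, 9 had at least 1 count in the treated library and none had one in the control library. Their treated counts summed to 42, or 10.9 CPM (7.83 to 14.7), and their control counts to 0, where 3 counts, or 1.35 CPM, were taken as the limit that a count of 0 allows and the exact interval reaches 1.66 CPM. The summed level was at least 8.07-fold higher in the treated library, taking 3 counts over the group as the control level. This and later at-least values leave out counting error on the treated side, and would be lower at the exact limit. The members made up 96.8% of all prolactin-family counts in the treated library and 100% of the 12 in the control library.

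Placental lactogen I, which signals through the prolactin receptor during pregnancy, is encoded by Prl3d1, Prl3d2 and Prl3d3. These are close paralogs, so counts of a single copy are uncertain. Prl3d2 had 15 and Prl3d1 had 7 treated counts, Prl3d3 had 0, and all had 0 control counts. Their sum of 22 counts was at least 4.23-fold higher in the treated library, with 3 counts again taken as the control level. Prl6a1 had 7 counts and Prl7b1 had 5, both against 0, and these genes encode prolactin-like proteins of the placenta. The other 5 rows with counts, Prl2a1, Prl2c5, Prl8a9, Prl5a1 and Prl8a6, had 1 or 2 treated counts each. Without the 2 counts of Prl2c5, the non-proliferin rows still summed to 40 counts against 0.

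No count fell on 14 of the family rows in either library. Among them were Prl7d1, which encodes the proliferin-related protein that inhibits vessel growth, and Prl3b1, which encodes placental lactogen II. Prl, the pituitary hormone itself, also had 0 counts in both libraries. At this depth, 3 treated counts correspond to 0.776 CPM and 3 control counts to 1.35 CPM, so lower levels may give no count at all.

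**Figure D3:**
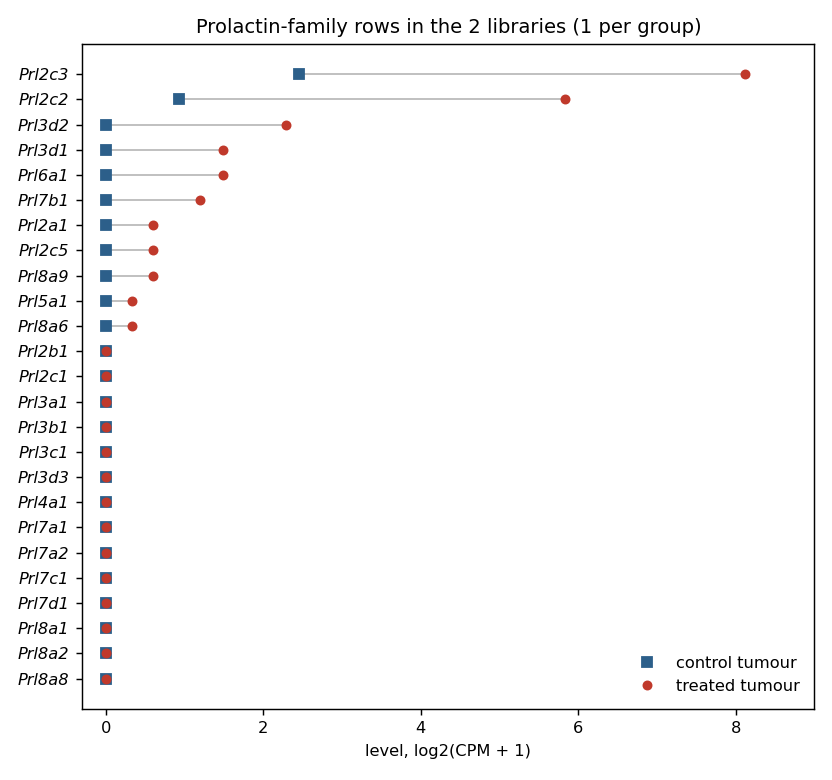
Level of each prolactin-family row as log2(CPM + 1) in the treated (red circles) and control (blue squares) library, 1 library per group, with a grey line joining them. Prl2c3 and Prl2c2 have the highest levels, 9 other rows lie above 0 in the treated library and 14 lie at 0 in both.

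Only some of the neighbouring genes could be measured. Of 10 other rows starting within 500 kb of either member, 4 had a mean of at least 10 CPM and none of these was past 2-fold in either direction, where 4.23% of measured genes were higher and 2.50% lower. Heatr1, a ribosome biogenesis factor, had a ratio of 0.998 (0.670 to 1.50), and Lgals8, a galectin, 1.08 (0.823 to 1.43). Gpr137b, a lysosomal membrane protein, had 1.39 (1.05 to 1.85). Nid1, a basement membrane protein, was 1.73-fold lower (1.30 to 2.31). Ero1b, an oxidase of the endoplasmic reticulum, had 26 against 15 counts and a ratio of 0.999 (0.510 to 2.03). Edaradd, an adaptor of ectodysplasin signalling, had 4 against 1 count, and Gm48682, an RNA antisense to Nid1, had 1 against 0. Gm30239 and Gm48544, noncoding RNAs, had 0 in both libraries, and Prl2c5 had 2 against 0. None of the 4 measured neighbours had a ratio like those of Prl2c2 and Prl2c3. With so few measured, that lies near the shares over all genes and is not read as a trait of the locus.

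**Figure D4:**
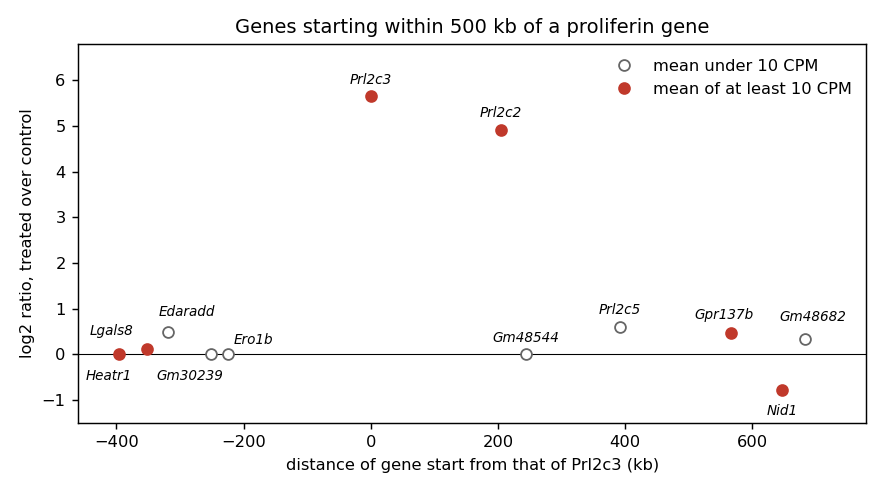
Log2 ratio of treated over control against the distance in kb of each gene's start from that of Prl2c3; filled points have a mean of at least 10 CPM, open points a lower mean. Prl2c3 and Prl2c2 stand at 5.66 and 4.91, whereas the 4 measured neighbours lie between -0.77 and 0.46.

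The genes of most similar pattern were Asprv1, Krt6a, Krt16, Stfa3 and Krt6b, of which the 3 keratins are on the keratinocyte list. Likeness was the distance in log2 ratio from the summed copies among 1597 named genes with a mean level within 2-fold of theirs, over only 2 libraries, so it describes 1 difference. The nearest was Asprv1, an aspartic protease of the stratum corneum, with 716 against 7 counts and a ratio of 59.0 (28.5 to 147). Next came Krt6a and Krt16, keratins of wounded epidermis, with ratios of 135.7 (46.2 to 660) and 119.4 (51.0 to 368). Stfa3, a cysteine protease inhibitor, followed with 105.3 (55.3 to 231), and Krt6b with 139.9 (59.8 to 432). Krt6a, Krt6b and Stfa3 have close paralogs, so their single counts are uncertain. Their log2 ratios lay between 0.21 below and 0.90 above that of the summed copies. A total of 12 of the 1597 genes were at least 16-fold higher.

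Keratinocyte markers were also higher in the treated library. Of 18 genes of that list, 14 were measured, and all 14 were at least 2-fold higher in the treated library. Over all measured genes, 4.23% were higher and 2.50% lower. Of the 14, 8 passed the minimum only through the treated library and so had to differ, and 6 reached 10 CPM in the control library. Those 6 had a median log2 ratio of 3.16. Over all 14 it was 4.79, or 4.17 with Dsc3, a desmosomal cadherin at 0 control counts that was named after its value was seen, set at 3 control counts. On a second deposited sheet, whose name speaks of removed errors and which gives Dsc3 89 control counts and leaves out Krtdap, the median was 3.62 over 13 measured genes. Summed over the list, the level was 5371 CPM treated against 602 CPM control, and no member with a row was at 0 in both. Krt5, of basal epidermis, had 1038 against 3 counts, and Krtdap, of differentiating keratinocytes, 1356 against 5. Krt14, the partner of Krt5, had 3856 against 275 counts, a ratio of 8.08 (7.15 to 9.17), and Lgals7, an epithelial galectin, 4801 against 189, a ratio of 14.6 (12.7 to 17.0). Of the 17 genes with a higher log2 ratio than Prl2c3, 7 were on this list. Among the 7 was Dsc3, at 5.72 against 5.66 for Prl2c3, a value that rests on its 0 control counts. The part of epidermal tissue in the proliferin difference was not tested.

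Of 15 hair follicle genes, 3 were measured and 8 had 0 counts in both libraries. Krt15, of follicle stem cells and basal epidermis, had 160 against 0 counts, at least 30.8-fold higher with 3 control counts taken. Krt79, of the upper follicle, had 215 against 1. In the full table both passed the minimum only through the treated library and so had to differ. The second sheet gives Krt79 99 control counts in place of 1, and there the median of the measured follicle genes was 0.32 instead of 5.29. With the control count of Krt15 set at 3, the median on the full table was 4.18. Sox9, a follicle and epithelial progenitor factor, had a ratio of 0.949 (0.755 to 1.20). Keratins of the inner root sheath (Krt25, Krt27 and Krt71) and the hair matrix factor Hoxc13 had 0 counts in both libraries. The list summed to 153.7 CPM treated and 59.2 CPM control.

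Most genes of the trophoblast list were at 0 in both libraries. Of 20 genes of that list, none reached a mean of 10 CPM and 15 had 0 counts in both libraries. Those at 0 included Hand1, needed for giant cells, Tpbpa of the spongiotrophoblast, Gcm1 and the syncytins Syna and Synb of the labyrinth, and the placental cathepsins Ctsq and Ctsj. The 5 with counts, named after their values were seen, were Eomes with 25 against 5, Tfap2c with 25 against 0, Psg17 with 10 against 8, Plac1 with 7 against 3 and Elf5 with 3 against 3. Tfap2c is also a factor of epidermis and mammary epithelium, and Eomes is also made by lymphocytes. The list summed to 18.1 CPM treated and 8.53 CPM control.

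Igf2r, the proliferin receptor, had 235 against 161 counts, a ratio of 0.842 (0.686 to 1.04). For Prlr, the prolactin receptor, 10 treated and 28 control counts gave a level 4.86-fold lower (2.29 to 11.2), at a mean of 7.58 CPM. Of 14 genes of receptors and signal carriers, 11 were measured, 1 was at least 2-fold higher and none lower, and the median log2 ratio was -0.22. Those counts lie near the shares of 4.23% higher and 2.50% lower over all measured genes. The gene past 2-fold was Mrc1, the macrophage mannose receptor, also counted on the macrophage list, at 2.99-fold higher (2.52 to 3.57). Jak2, the kinase bound to the prolactin receptor, had a ratio of 1.09 (0.964 to 1.23), the G protein subunit gene Gnai2 1.48 (1.33 to 1.65), and Cish, a feedback target of STAT5, 1.58 (1.20 to 2.11).

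Most measured genes of AP-1, the serum response and glucocorticoid signalling lay within 2-fold. The list includes both factors known at the proliferin promoter and feedback or target genes. Of 22 genes, 19 were measured, 2 were at least 2-fold higher and none lower. Of the 19, 14 had log2 ratios above 0, and the median was 0.40 against 0.03 over all measured genes. Of all measured genes, 4.23% were higher and 2.50% lower. The 2 were Dusp1, a phosphatase of MAP kinases, at 2.21-fold (1.53 to 3.27) and Zfp36, an mRNA decay factor, at 2.13-fold (1.54 to 3.01). The AP-1 subunit Junb, one of the most abundant members, had a ratio of 0.946 (0.887 to 1.01), and the stress-induced gene Ier3 1.19 (1.07 to 1.33). Outside the naming rule and chosen after their values were seen, Fos had a ratio of 2.02 (1.47 to 2.84), Fosl1 1.88 (1.33 to 2.71), and Jun and the glucocorticoid receptor gene Nr3c1 0.784 (0.677 to 0.909) and 0.803 (0.622 to 1.04). Fos stayed just under the 2-fold rule through the pseudocount, at a log2 ratio of 0.985.

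Several genes of vessels, on which proliferin is known to act, were lower in the treated library. Of 24 factors that promote or restrain vessel growth, 16 were measured, 1 was at least 2-fold higher and 6 lower, and the median log2 ratio was -0.73, where 4.23% of all measured genes were higher and 2.50% lower. The higher gene, named after its value was seen, was Adm (adrenomedullin), a vasodilator peptide, at 3.43-fold (2.15 to 5.74). Ccn2, a matricellular factor, was 9.92-fold lower (8.45 to 11.7), Pdgfb, a pericyte attractant, 3.95-fold (2.43 to 6.61), and Thbs1, an inhibitor of vessel growth, 2.36-fold (2.12 to 2.63). Of 12 endothelial genes, 10 were measured, of which 5 were past 2-fold lower and none higher. Their median was -0.97, and the list summed to 235.2 CPM treated and 446.9 CPM control. The junction genes Cldn5 and Cdh5 were 3.53-fold (2.19 to 5.83) and 3.17-fold (2.35 to 4.31) lower, and the receptor genes Tek and Eng 1.78-fold (1.48 to 2.13) and 1.31-fold (1.02 to 1.68). Vwf and Tie1, below the 10 CPM minimum and named after their values were seen, had 18 against 3 and 21 against 7 counts, ratios of 3.46 (1.01 to 18.3) and 1.73 (0.708 to 4.82). These values stand beside the proliferin level as 1 pair of tumours and do not relate it to vessels.

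Lists of the other compartments had medians from -0.22 to 1.45. The 4T1 epithelial list had 12 measured genes, 1 at least 2-fold higher, a median of 0.24 and summed levels of 5585 and 4964 CPM. Its most abundant members Krt8 and Krt18 had ratios of 1.08 (1.04 to 1.12) and 1.13 (1.08 to 1.18). Elf3, an epithelial transcription factor, had 2.93 (1.60 to 5.79), and Spint1, an inhibitor of membrane serine proteases, 1.65 (1.27 to 2.18). On the fibroblast list, 10 of 12 genes were measured, with 1 at least 2-fold higher, a median of -0.22 and summed levels of 3917 and 4964 CPM. Dcn, a matrix proteoglycan, was 2.42-fold higher (1.97 to 2.98), while 8 of the 10 measured genes had log2 ratios below 0. Among them were the matrix genes Fn1, Col3a1 and Sparc, with ratios of 0.749 (0.718 to 0.780), 0.832 (0.781 to 0.885) and 0.656 (0.614 to 0.701). The macrophage list had 3 of 10 measured genes at least 2-fold higher and a median of 0.38, with summed levels of 2245 and 2035 CPM. Cd14, a co-receptor for lipopolysaccharide, had a ratio of 2.70 (2.09 to 3.51), the apolipoprotein gene Apoe 1.24 (1.17 to 1.33) and the lysozyme gene Lyz2 0.632 (0.588 to 0.680). On the neutrophil list 8 of 9 measured genes were past 2-fold higher and 1, Mmp9, past 2-fold lower. The median was 1.45, with summed levels of 2742 and 1895 CPM. The calprotectin genes S100a8 and S100a9 had ratios of 2.47 (2.29 to 2.66) and 3.29 (3.07 to 3.53), and the chemokine receptor gene Cxcr2 6.44 (2.81 to 18.2). Over all measured genes, 4.23% were higher and 2.50% lower by the same rule. None of these lists had a member with a row at 0 in both libraries. Their part in the proliferin difference was not tested.

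Of 25 secreted growth and invasion factors of carcinoma cells, 19 were measured, 1 was at least 2-fold higher and 3 lower, and the median log2 ratio was -0.21, beside 4.23% higher, 2.50% lower and a median of 0.03 over all measured genes. Areg (amphiregulin), a ligand of the EGF receptor, was 4.35-fold higher (3.15 to 6.16). Mmp9, a gelatinase, was 4.62-fold lower (4.27 to 5.01) and Spp1 (osteopontin), the most abundant member, 1.91-fold lower (1.86 to 1.96). Igf2, whose product shares the receptor Igf2r with proliferin, had 0 counts in both libraries.

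**Figure D5:**
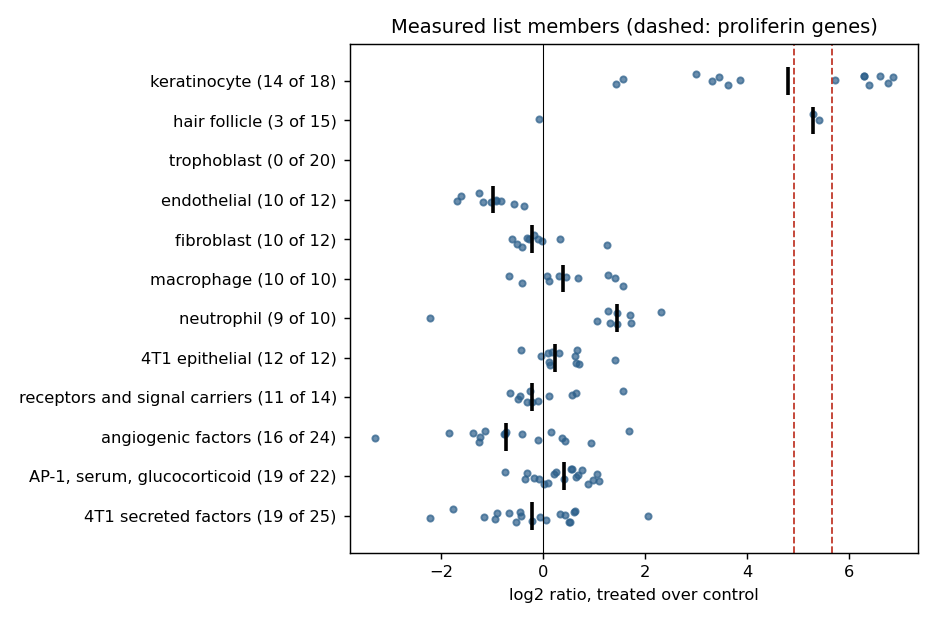
Log2 ratio of treated over control of each measured member (blue points) of the 12 gene lists, with black bars at the medians, the number measured of all genes in parentheses and red dashed lines at Prl2c2 (4.91) and Prl2c3 (5.66). Some members of the keratinocyte list pass both proliferin ratios, some of the hair follicle list pass only that of Prl2c2, and no trophoblast gene was measured.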

How the data were processed

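Per the labels, RNA of 2 tumours was sequenced in bulk. The authors deposited 1 table of values per gene in 34290 rows, aligned to mm10 per the submitters' processing notes; for aligner, counting tool, strand and treatment of reads matching several genes, the sources used here give nothing. The deposited values are whole-number counts in 34259 rows. The other 31 rows, autophagy genes on another scale, were left out. The planned tests assumed counts throughout. Columns were assigned through the sheet deposited for each sample, and 7 further value columns were not used. Library totals were scaled by TMM, a trimmed mean of log ratios (30% of log ratios and 5% of abundances trimmed), with factors of 1.01 and 0.989. Ratio intervals are conditional binomial, level intervals Poisson and share intervals Clopper-Pearson. With 1 library per group no test was run. Copies were aligned with Biopython 1.88, and gene positions come from GENCODE M21, matched for 32205 of 34259 IDs. The members and the 12 gene lists were chosen with earlier results of these data known. Besides the members and family rows, the text names neighbours within 500 kb, the 5 most alike genes, and from each list the 2 most abundant measured members and the 2 with the largest absolute log2 ratio. Alternatives were 3 scalings, 2 pseudocounts, 3 minimums, a 1.5-fold threshold, the second sheet, and keeping the 31 rows.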

Additional observations from a re-analysis of the deposited data

How the results depend on the processing

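No paired analysis was possible because each group has 1 library. The ratio of the summed copies lay between 60.6 and 63.0 over the 3 other scalings, the second sheet and the 31 rows kept, and its log2 ratio between 5.02 and 5.82 when the pseudocounts were also changed. For Prl2c2 the log2 ratio ran from 3.37 to 5.34, lowest with a pseudocount of 5 CPM. Genes at least 2-fold higher and lower numbered 375 and 222. They numbered 1061 and 674 with a minimum of 1 CPM, 81 and 77 with 50 CPM, and 1356 and 774 with none. A 1.5-fold threshold gave 1138 and 800, and a pseudocount of 5 CPM gave 144 lower genes. The share of higher among called genes was 62.8%, and 51.3% with a minimum of 50 CPM. The median of the hair follicle list, 5.29 over 3 genes, was 2.61, -0.075 and 0.33 with minimums of 1 CPM, 50 CPM and none, since other genes then enter or leave, and 0.32 on the second sheet, where Krt79 has another control value. The median of the secreted factors was -0.49 with a minimum of 50 CPM, over fewer genes. The remaining 154 of 168 recomputed values moved by less than their counting interval or, for counts of genes, by less than 1.5 times. The control side of the proliferin ratio rests on 12 counts, which limits its precision.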

Other observations

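The second sheet deposited for each tumour holds 34250 of the 34290 rows and gives Prl2c2 and Prl2c3 the same values as the full table. In the control sheet 3 values differ from the full table, and all 3 belong to epithelial genes. Krt79, a keratin of the upper hair follicle, is 1 in the full table and 99 in the second sheet. Pof1b, an epithelial actin-binding protein, is 2 and 99. Dsc3, a desmosomal cadherin of basal epidermis, is 0 and 89. The treated values of these genes are the same in both sheets, 215, 213 and 200. Among the 40 rows left out of the second sheet is 1 gene of the keratinocyte list, Krtdap. The name of the second sheet speaks of removed errors, and the sources used here do not say what was removed or replaced.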
